A study of Mus musculus with 12 samples.

Results

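Total CD8+ T cells from uMT mice were compared with total CD8+ T cells from AID KO mice on 4 arrays, 2 of each genotype, out of 12 arrays in the series. The uMT arrays were 1 of peripheral lymph node (PLN) cells and 1 of mesenteric lymph node (MLN) cells, and the AID KO arrays were likewise 1 PLN and 1 MLN. All mice were female C57BL/6, and the labels give no age, no number of animals per array and no details of either mutant allele. The labels state that there were no replicates, so p-values measure the departure of single arrays from additive terms for genotype, lymph node and slide, and the spread may be technical. 4 further arrays held WT total CD8+ T cells, 2 PLN and 2 MLN. The remaining 4 held naive PLN CD8+ T cells, sorted as CD44 low and titled Sca1p or Sca1m, from AID KO and uMT mice.

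AID is the cytidine deaminase that drives class switching and somatic hypermutation of antibody genes in activated B cells. The uMT mutation disrupts the membrane form of the immunoglobulin mu chain, so that B cell development is blocked and mature B cells are largely missing. In AID KO mice B cells are present but remain on unmutated, unswitched antibody. The comparison therefore sets CD8+ T cells from hosts without mature B cells beside CD8+ T cells from hosts whose B cells lack AID. The labels do not state that purpose.

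Each array was scanned in 1 colour. The level of a gene is log2 of its processed signal minus the 75th percentile of its array, and levels of different genes are not compared. The AID KO array of PLN cells shared slide 1 with the uMT array of MLN cells, each beside a WT array of its own site, and the other two knockout arrays shared slide 2 in the same way. Each slide was its own scan session, and slide and site cancel in the mean of both matched differences. Between 50.1% and 56.8% of spots were well above background per array, and levels of total-cell arrays correlated at 0.978 to 0.992. The median absolute difference between uMT and AID KO was 0.30 in PLN and 0.32 in MLN, beside 0.27 and 0.29 between the 2 WT arrays of each site. All 7 CD8 T cell markers tested were well above background on all arrays, and their median difference was -0.017.

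Across 25784 features (13910 with a gene symbol), 56 were higher in uMT and 23 were lower at a limma adjusted p under 0.05. These are 0.217% and 0.0892% of the features tested. The calls covered 54 named genes, 43 higher and 11 lower. Here rose and fell mean higher and lower in uMT than in AID KO, and not than in WT. All 79 had the same sign in PLN and in MLN, plain and after subtracting the WT array of the same site and slide, beside 25.2% of all features. The calls were made on the mean of the PLN and MLN differences of these same arrays, so that agreement is not separate support. With each knockout array blocked with its own WT array, which leaves 2 residual degrees of freedom, 1 feature passed (0.00388%; 1681 at an unadjusted p under 0.05, limma adjusted p = 0.0488). The counts rest on every array. Without uMT MLN 1 feature passed (0 higher, 1 lower). Without AID KO PLN 7 passed and without AID KO MLN 7. 14 passed without uMT PLN. Without a WT array 14 (WT PLN 2), 17 (WT MLN 2), 19 (WT PLN 1) or 23 (WT MLN 1) passed, and without the naive Sca1p AID KO array 37.

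**Figure D1:**
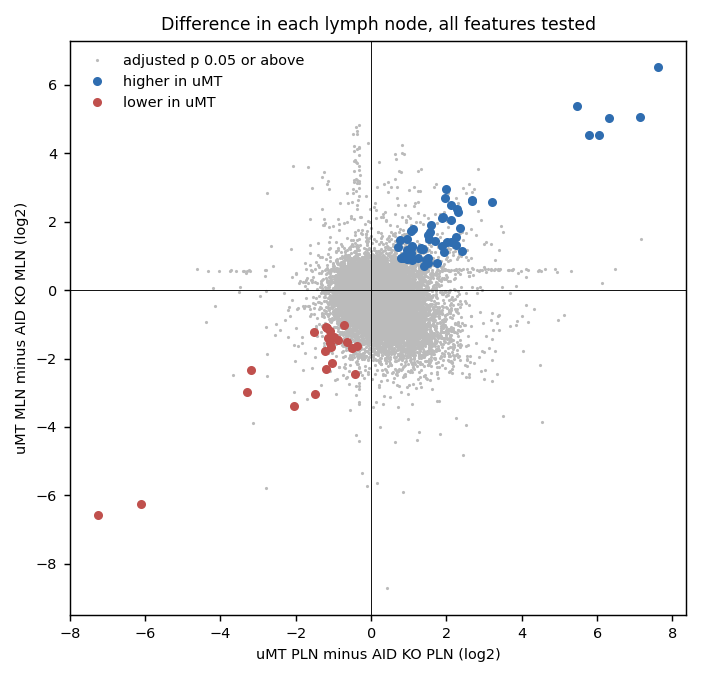
Difference between uMT and AID KO in PLN (horizontal axis) and in MLN (vertical axis), log2, for each feature tested, 1 array against 1 array per site. The 56 features higher in uMT lie at the upper right and the 23 lower ones at the lower left. The kallikreins are farthest out among the rises, and Pianp is among the farthest of the falls with a difference of -6.17.

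The largest rises were tissue kallikreins, serine proteases encoded by a cluster on chromosome 7 and best known from salivary gland. 6 of 10 kallikrein genes tested rose in uMT and none fell, beside 0.217% and 0.0892% of all features. The list median was 5.23 beside -0.015 over all features. Klk1b22 had levels of 0.65 and 0.51 in WT PLN and 0.98 and 0.58 in WT MLN. In AID KO it was -5.22 (PLN) and -4.09 (MLN), and in uMT 2.41 (PLN) and 2.44 (MLN). The 3 genotypes did not overlap, with WT between the others, uMT above it and AID KO far below it. The difference was 7.08 ± 0.31 (SE, limma adjusted p = 0.00811), on 11 arrays, since the naive Sca1p AID KO spot was an outlier and was left out.

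Klk1b4 showed the same order, with -1.71 and -2.05 in uMT, -3.98 to -3.55 in WT and -7.18 and -7.44 in AID KO. Klk1b4 was not well above background in either AID KO array, so its rise is at least 8.62-fold (measured difference 5.43 ± 0.21 SE, limma adjusted p = 0.00225). Klk1b27 was likewise dim in both AID KO arrays and rose at least 25.2-fold. Klk1b24, Klk1b3 and Klk1b8 rose by 5.66, 5.29 and 5.16. Set against their own WT arrays, the 6 genes were up to 1.82 higher in uMT (Klk1b24) and a measured 3.38 to 5.27 lower in AID KO. The AID KO values rest on dim spots and are not bounds, so the size of these falls from WT is not settled. Klk1b4 and Klk1b27 were not well above background in either AID KO array, and the other 4 were in 1 of 2.

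Among the other kallikreins tested, Klk1b21 had a difference of 1.07 (limma adjusted p = 0.116), Klk8 0.17, Klk10 -0.031 and Klk11 0.061. In naive cells Klk1b4, Klk1b24 and Klk1b27 were not well above background on any array. Klk1b22 (1.98), Klk1b3 (0.64) and Klk1b8 (0.22) did not pass there. Markers of exocrine gland, a tissue in which these genes are abundant, had a summed level (linear signal over the array's 75th percentile) of 0.813 to 1.05 in uMT, 0.842 to 1.05 in AID KO and 0.960 to 1.21 in WT, and 0 of 5 tested passed. The part of other cells in the kallikrein signal was not tested beyond these markers. In such bulk samples fewer cells of a type and less RNA per cell cannot be told apart.

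These genes are close copies, and a probe may read more than 1 of them. The 250 bases before the start of 3 of them show how alike the upstream sequences are. They come from RefSeq (GRCm38.p6) and all 3 lie on the plus strand of chromosome 7. Klk1b22 is at chr7:44112423-44112672, Klk1b24 at chr7:44187986-44188235 and Klk1b27 at chr7:44052040-44052289. Capitals in Klk1b24 and Klk1b27 mark bases that are not identical to Klk1b22 in a global alignment.
Klk1b22: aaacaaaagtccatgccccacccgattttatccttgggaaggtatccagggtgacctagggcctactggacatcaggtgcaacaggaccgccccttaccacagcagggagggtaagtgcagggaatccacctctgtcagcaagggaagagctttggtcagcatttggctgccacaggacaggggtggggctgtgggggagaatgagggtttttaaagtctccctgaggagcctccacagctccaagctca
Klk1b24: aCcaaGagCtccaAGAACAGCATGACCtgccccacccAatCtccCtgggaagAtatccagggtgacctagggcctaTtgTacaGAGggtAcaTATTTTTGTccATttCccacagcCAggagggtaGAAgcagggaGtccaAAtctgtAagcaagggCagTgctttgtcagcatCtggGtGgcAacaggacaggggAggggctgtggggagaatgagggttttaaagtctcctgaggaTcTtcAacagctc
Klk1b27: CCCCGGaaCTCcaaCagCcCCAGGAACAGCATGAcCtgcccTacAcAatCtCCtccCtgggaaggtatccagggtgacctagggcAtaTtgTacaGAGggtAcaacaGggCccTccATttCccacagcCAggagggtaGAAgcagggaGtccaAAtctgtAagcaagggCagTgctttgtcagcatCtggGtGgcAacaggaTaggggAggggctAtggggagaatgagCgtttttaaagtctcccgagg
Identity to the Klk1b22 window was 76.8% for Klk1b24, 73.6% for Klk1b27, 68.4% for Klk1b3, 80.8% for Klk1b4 and 81.2% for Klk1b8. None of these windows holds any of the 5 motifs searched below.

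**Figure D2:**
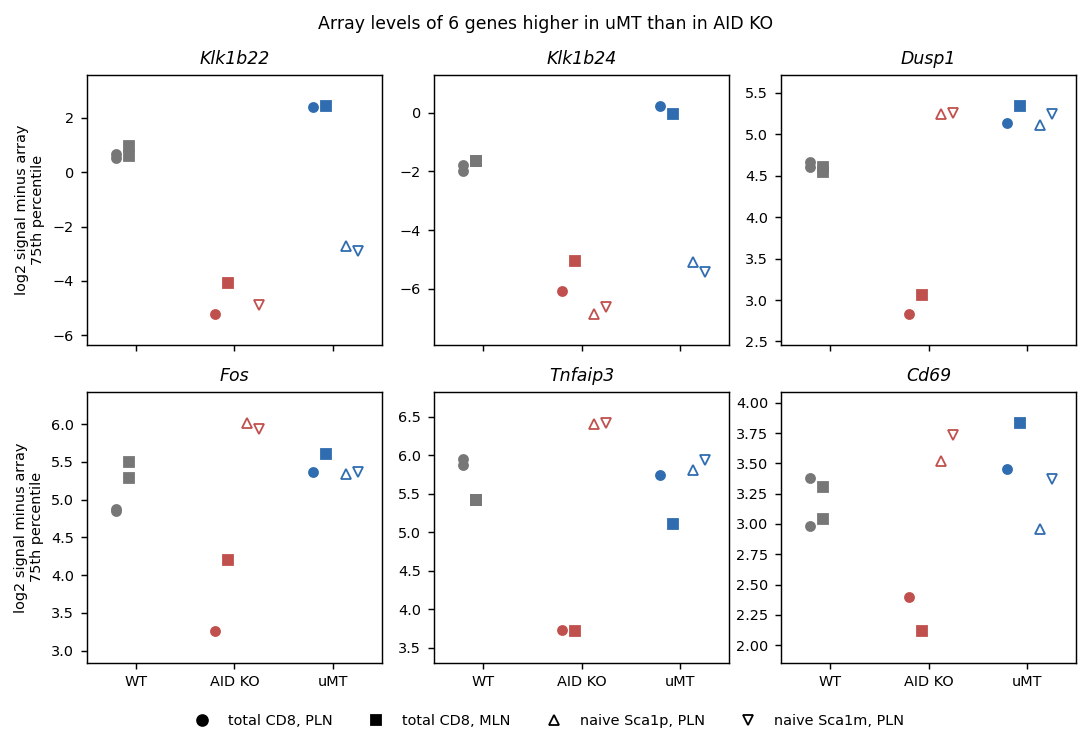
Level (log2 signal minus the 75th percentile of the array) of 6 genes that rose, by genotype, 1 symbol per array, with filled symbols for total CD8+ T cells and open symbols for naive cells. For Klk1b22 and Klk1b24 the uMT total-cell arrays lie above WT and the AID KO arrays below, and for Dusp1, Fos, Tnfaip3 and Cd69 both AID KO total-cell arrays lie below every other array shown.

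The second set of rises was made of early response genes, whose transcripts appear within minutes of a stimulus and encode transcription factors and feedback inhibitors of signalling. Fos and Jun, which pair to form the AP-1 factor, rose by 1.76 ± 0.13 and 1.16 ± 0.12 (SE, limma adjusted p = 0.0149 and 0.0416). In PLN the level of Fos was 4.88 and 4.85 in WT, 3.25 in AID KO and 5.37 in uMT. In MLN it was 5.28 and 5.50 in WT, 4.21 in AID KO and 5.60 in uMT. Within each site AID KO was the lowest array and uMT lay close to WT. Of 11 AP-1 and ATF genes tested, 3 rose (Fosl2 by 0.87), beside 0.217% of all features, and the list median was 1.13. Fosl2 in uMT was below its own WT arrays (-0.50), and in AID KO farther below (-1.31). All 11 were higher in uMT, beside 47.3% of all features. Set against their own WT arrays, the medians were 0.17 in uMT and -1.27 in AID KO. Junb (1.36), Fosb (1.80) and Atf3 (2.09) were higher without passing (limma adjusted p = 0.0616, 0.161 and 0.257).

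Dusp1 and Dusp5, phosphatases that switch off MAP kinases, rose by 2.29 ± 0.12 and 2.32 ± 0.14 (SE, limma adjusted p = 0.00665 and 0.00811). Dusp1 was 4.55 to 4.67 in the 4 WT arrays, 2.83 and 3.06 in AID KO and 5.14 and 5.34 in uMT. The genotypes did not overlap. Of 10 genes of the DUSP and Sprouty list 2 rose and none fell (median 0.48), beside 0.217% and 0.0892% of all features. Of the 10, 8 were higher, beside 47.3% of all features. Dusp5 in uMT was near its own WT arrays (-0.060), and in AID KO below them (-2.38). Dusp2 had 0.75 and did not pass.

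Among 21 genes of NF-kB feedback and mRNA decay, 2 rose (beside 0.217% of all features), 20 were higher (beside 47.3%), and the median was 0.41. Tnfaip3, which encodes the ubiquitin-editing inhibitor A20 of NF-kB signalling, was 5.42 to 5.95 in WT, 3.73 and 3.71 in AID KO and 5.75 and 5.11 in uMT (1.70, limma adjusted p = 0.0149). Ppp1r15a, a phosphatase subunit that relieves the block on translation after stress, rose by 1.52. Of 9 KLF factors 1 rose (beside 0.217% of all features), Klf4 by 1.90, and 6 were higher (beside 47.3%). The list median was 0.75, and Klf6 (1.33) and Klf2 (0.76) did not pass.

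Cd69, a surface lectin that retains activated T cells in lymph nodes, was the 1 gene to rise among 20 activation and inhibitory receptors (list median 0.042). Of all features 0.217% rose. Cd69 was 2.98 to 3.38 in WT, 2.39 and 2.11 in AID KO and 3.46 and 3.83 in uMT (1.39 ± 0.10 SE, limma adjusted p = 0.0147). Ctla4, an inhibitory receptor, had a difference of 2.38 and did not pass (limma adjusted p = 0.0619). The EGR and NR4A factors, which respond to antigen receptor signals, gave 0 of 8, with a median of -0.034, 3 higher and 5 lower. Of the 8, 2 had an unadjusted p under 0.05, beside 3146 of all 25784 features. Nr4a2 had 1.74, Nr4a1 0.89, Egr1 0.22 and Egr3 -0.35. None of 14 heat shock chaperones passed (4 at an unadjusted p under 0.05, median 0.14).

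Further rises were of genes outside these lists. Bambi, a decoy receptor of TGF-beta signalling, rose by 2.03 and Rgs2, an inhibitor of G protein signalling, by 1.78. Rhob, a small GTPase, was -1.05 to -0.82 in WT, -2.06 and -1.80 in AID KO and 0.073 and 0.69 in uMT, and rose by 2.31. Arrdc4, an arrestin-like regulator of glucose uptake, rose by 2.34 on the brighter of its 2 probes, and the other probe gave 1.15. For Rhob and Arrdc4 uMT was above its own WT arrays (1.33 and 1.24) and AID KO below (-1.07 and -1.17). Bhlhe40 (1.75), Sik1 (1.51), Ccno (2.09), Tsc22d1 (1.56), Trim13 (1.55) and Hexim1 (1.59) also rose. Plekhf1 and Fstl1 were not well above background in either AID KO array and rose at least 2.20-fold and at least 1.39-fold.

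Of the 56 features higher in uMT, 49 lay farther from their own WT arrays in AID KO than in uMT, and of the 23 lower ones 14 did, beside 40.9% of all features. Trnp1 differed from most, with -0.13 to 0.45 in WT, 0.83 and 0.56 in AID KO and 2.16 and 1.78 in uMT. Trnp1 was chosen after its values were seen.

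Upstream windows of genes that rose were searched on both strands for 5 motifs. These were the cAMP response element TGACGTCA, the AP-1 site TGANTCA, the TATA box TATAAA, the CArG box of serum response factor and the NF-kB site. Of the 37 genes that rose outside the kallikreins, 31 had a window of 250 bases. The cAMP response element was in 3 of them (9.7%, beside 1.8% of 27025 genes) and the CArG box in 4 (12.9%, beside 1.6%). The 27025 are all genes with a window, whether or not they were tested here, so the sets are unlike. The NF-kB site was in 3 (9.7%, beside 4.5%), the AP-1 site in 1 (3.2%, beside 7.8%) and the TATA box in 7 (22.6%, beside 14.3%). The windows of 4 genes are shown with the cAMP response element or the CArG boxes in capitals, as examples of the matches. They come from RefSeq (GRCm38.p6): Dusp1 at chr17:26508473-26508722 (minus strand), Ppp1r15a at chr7:45526269-45526518 (minus), Dusp5 at chr19:53528895-53529144 (plus) and Arrdc4 at chr7:68749239-68749488 (minus).
Dusp1: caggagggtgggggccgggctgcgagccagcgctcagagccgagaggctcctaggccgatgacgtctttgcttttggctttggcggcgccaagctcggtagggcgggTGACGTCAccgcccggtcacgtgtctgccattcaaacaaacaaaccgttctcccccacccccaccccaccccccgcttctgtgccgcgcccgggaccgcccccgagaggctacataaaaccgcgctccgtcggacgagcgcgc
Ppp1r15a: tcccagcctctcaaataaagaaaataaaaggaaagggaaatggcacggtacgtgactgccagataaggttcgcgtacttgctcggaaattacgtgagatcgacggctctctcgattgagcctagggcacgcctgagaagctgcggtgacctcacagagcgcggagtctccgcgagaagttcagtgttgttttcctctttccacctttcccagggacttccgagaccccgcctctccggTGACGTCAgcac
Dusp5: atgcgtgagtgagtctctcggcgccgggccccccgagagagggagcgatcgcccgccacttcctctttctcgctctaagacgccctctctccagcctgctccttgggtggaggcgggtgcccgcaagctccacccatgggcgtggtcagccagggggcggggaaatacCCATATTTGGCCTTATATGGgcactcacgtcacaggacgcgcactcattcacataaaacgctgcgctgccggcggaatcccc
Arrdc4: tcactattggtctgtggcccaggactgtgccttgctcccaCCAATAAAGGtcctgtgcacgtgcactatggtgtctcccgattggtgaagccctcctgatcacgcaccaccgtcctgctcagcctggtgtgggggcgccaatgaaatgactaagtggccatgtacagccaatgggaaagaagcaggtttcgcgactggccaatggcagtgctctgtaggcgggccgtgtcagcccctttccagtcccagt
The cAMP response element lies 136 to 143 bases before the start in Dusp1 and 5 to 12 in Ppp1r15a. Dusp5 has a pair of adjoining CArG boxes 63 to 82 bases before the start. These are matches of letters, not measured binding sites.

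In the other direction, 4 of 11 named falls were on chromosome 6 (36.4%, beside 4.93% of genes tested), and all 4 were higher in the AID KO arrays, in total and in naive cells. Pianp, Ppfibp1 and Smim10l1 were among them. Of the 43 named rises 4 were on that chromosome (9.30%). Pianp, which encodes a ligand of the paired receptor PILR-alpha, was 1.41 and 1.47 in AID KO, -4.69 and -4.77 in uMT and -5.24 to -4.28 in WT. The difference was -6.17 ± 0.28 (SE, limma adjusted p = 0.0033), and -6.19 in naive cells. Pianp was well above background on 1 of 2 uMT arrays, 2 of 4 WT arrays and 2 of 4 naive arrays. In naive uMT cells it was -4.89 (Sca1p) and -4.89 (Sca1m), under the lowest signal well above background of those arrays (-4.62 and -4.75). The naive difference is therefore measured against dim spots alone, and the total-cell difference partly against them. A second Pianp probe gave -2.94. Ppfibp1, a liprin scaffold protein, was -1.25 and -1.64 in AID KO, -4.56 and -4.62 in uMT and -4.65 to -3.74 in WT (-3.14, limma adjusted p = 0.00665). Ppfibp1 was well above background on 1 of 2 uMT arrays. Smim10l1 fell by 1.13 on its brighter probe, while its second probe gave 0.78, so the probes disagree in sign.

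Mical3, an actin-oxidising enzyme also encoded on chromosome 6, rose by 1.44 (limma adjusted p = 0.0149). Mical3 was -2.13 and -2.29 in AID KO, -1.02 and -0.52 in uMT and -0.98 to -0.75 in WT, and its naive difference was 1.03 (limma adjusted p = 0.0334). Among the 50 genes on each side in the RefSeq gene table, 42 were tested around Pianp and 29 around Ppfibp1, and 0 passed in either.

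**Figure D3:**
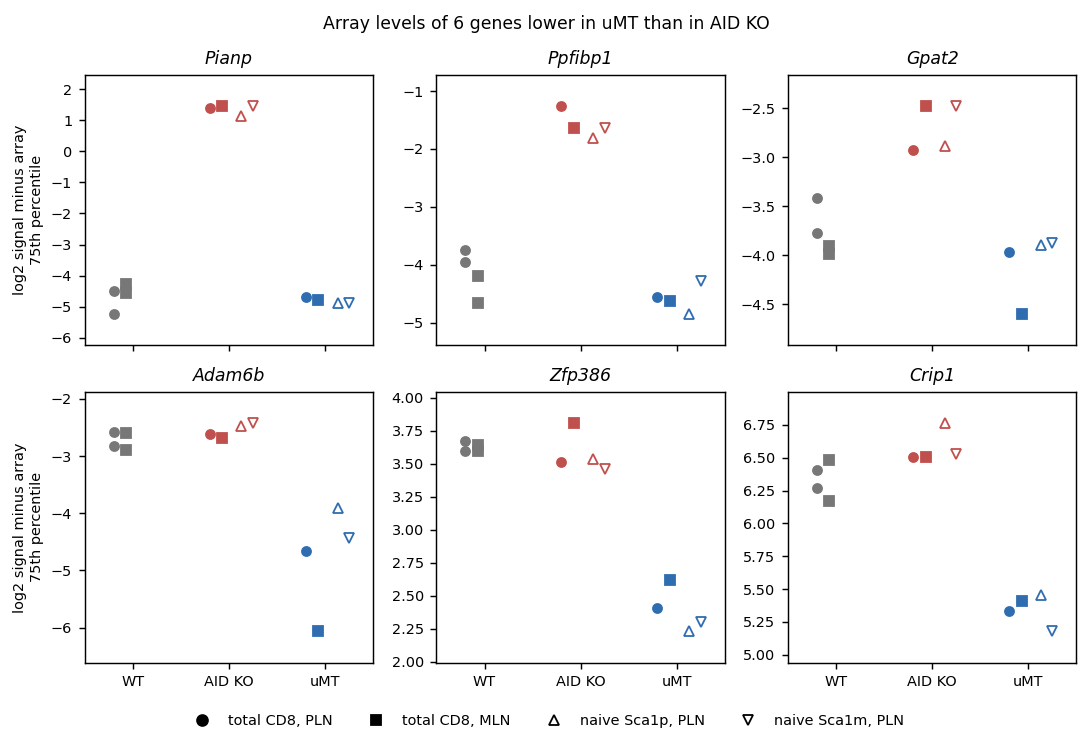
Level (log2 signal minus the 75th percentile of the array) of 6 genes that fell, by genotype, 1 symbol per array, with filled symbols for total CD8+ T cells and open symbols for naive cells. Pianp and Ppfibp1 (chromosome 6) and Gpat2 (chromosome 2) are higher in all AID KO arrays than in all others, and Adam6b, Zfp386 and Crip1 (chromosome 12) are low in uMT arrays alone.

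3 further falls were on chromosome 12 (27.3% of named falls, beside 3.29% of genes tested), and for these uMT differed from both other genotypes. Crip1, a small LIM-domain protein, was 6.17 to 6.48 in WT, 6.51 and 6.51 in AID KO and 5.34 and 5.41 in uMT (-1.13 ± 0.12 SE, limma adjusted p = 0.0434). Zfp386, a zinc finger protein, fell by 1.15 and Adam6b, an ADAM-family gene of the immunoglobulin heavy chain region, by 2.72. Adam6b was -2.90 to -2.58 in WT, -2.61 and -2.68 in AID KO and -4.67 and -6.07 in uMT. It was well above background on 1 of 2 uMT arrays. In naive cells Crip1 had -1.33 and Zfp386 -1.23 (limma adjusted p = 0.0223 and 0.0293), and Adam6b -1.72 (0.0988). Adam6b and Crip1 were each the 1 called neighbour of the other within 50 genes. The gene Ighm was not analysed here. The other named falls were Gpat2 (-1.58), Rtn2 (-1.44), AF366264 (-1.11) and 5830444B04Rik (-1.27). Gpat2 and Rtn2 were each well above background on 1 of 2 uMT arrays.

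The naive arrays gave the same genotype contrast in other cells, on another slide. There 96 features passed (0.372%). Of the 56 rises of total cells, 27 were higher in naive uMT cells, beside 49.8% of all features, and 2 passed in the same direction. Of the 23 falls 7 were higher and 8 passed as falls. The difference between the contrasts in total and in naive cells was tested after values were seen, and 63 features passed (0.244%), among them 21 of the 56 rises and 3 of the 23 falls. Of these, 5 rises and 1 fall were not well above background on any naive array, so their naive difference has no size. The test of the difference contains the total-cell difference that selected the rises and falls, so a high share among them was built in. Fos differed by 2.38 between total and naive cells, Dusp1 by 2.37, Tnfaip3 by 2.24 and Cd69 by 1.85 (limma adjusted p = 0.0188, 0.0186, 0.0208 and 0.0188). For Pianp, Crip1 and Zfp386 that difference was 0.019, 0.20 and 0.085. Pianp was well above background on 2 of 4 naive arrays, neither of them uMT, and on 1 of 2 total-cell uMT arrays. Its value of 0.019 therefore rests on dim uMT spots and does not show that the differences are equal. Total cells came from PLN and MLN and lay on slides other than the naive cells, which came from PLN alone. Sort, slide and lymph node site cannot be told apart there.

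**Figure D4:**
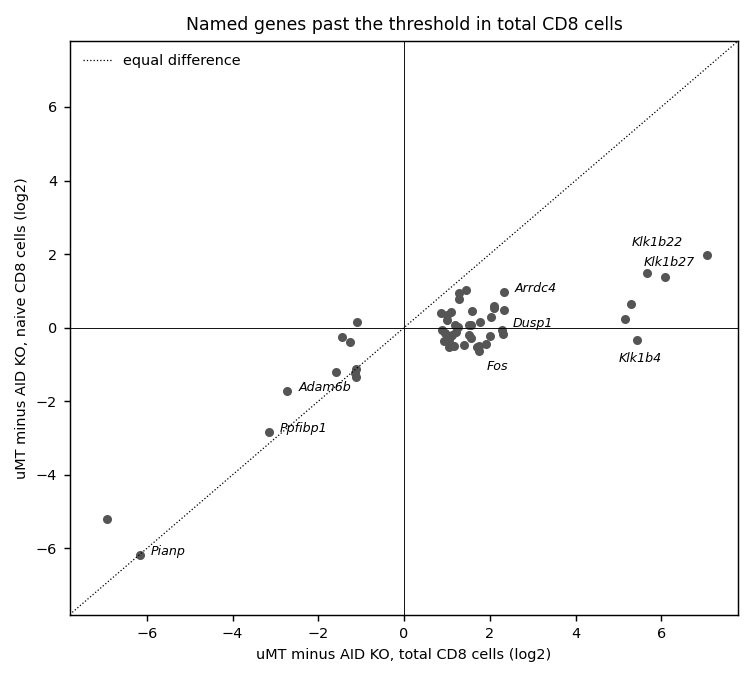
uMT minus AID KO in total CD8+ T cells (horizontal axis) and in naive CD8+ T cells (vertical axis), log2, for the 54 named genes past the threshold in total cells. Pianp (-6.17 and -6.19) and Ppfibp1 (-3.14 and -2.84) lie near the dotted line of equal difference, Adam6b (-2.72 and -1.72) lies above it, and most rises lie near 0 on the vertical axis. Klk1b4 and Klk1b27 were not well above background on any naive array, and Pianp was on 2 of 4, neither of them uMT.

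No difference between MLN and PLN passed (0 features by limma, 1369 at an unadjusted p under 0.05, lowest adjusted p = 0.184). The genes of lowest p were Nsdhl, with a PLN difference of 0.14 and an MLN difference of -5.64, Btc, with 4.55 and -3.86, and Pard3b, with 1.75 and 0.22. The tested term also takes out the slide effect estimated from the WT arrays, and it was -5.45, -8.50 and -5.48, so these plain differences do not add up to it.

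Several lists had no member past the threshold. Over all 25784 features tested, 12191 were higher in uMT (47.3%) and 3146 had an unadjusted p under 0.05 by limma. The type I interferon response had 38 of 40 genes higher in uMT and 0 that passed (0 at an unadjusted p under 0.05), with a median of 0.33, made of 0.13 in PLN and 0.52 in MLN, and -0.23 in naive cells. Without 1 array or under another processing that median ranged from -0.41 to 0.91, so its direction is not settled. Ifi204 had 0.32 and Ifit1 0.41. Of 32 effector and memory genes 0 passed (8 at an unadjusted p under 0.05, median 0.056), with Ifng at 1.27 (limma adjusted p = 0.0759). Of 17 NK receptor genes 0 passed (8 at an unadjusted p under 0.05, median 0.46). Klra7 had 1.66 and Klrc3 -1.54, and these families are close copies. Of 24 T cell receptor signalling genes 0 passed (0 at an unadjusted p under 0.05, median 0.0076), and of 20 naive and quiescence genes 0 (6, median 0.037). Of 22 homing genes 0 passed (5, median -0.15), with Cxcr4 at 1.28 (limma adjusted p = 0.0619). Ribosomal protein genes had a median of 0.32 in PLN and -0.26 in MLN, with 0 of 35 past the threshold (0). Proliferation (0 of 32, 4), sterol synthesis (0 of 18, 6), glycolysis (0 of 20, 1), interferon-gamma response (0 of 26, 2) and the Ly6 family (0 of 10, 1) had medians of -0.15, -0.13, -0.030, 0.016 and 0.075, where the second count in each bracket is of genes at an unadjusted p under 0.05. Ly6a, which encodes Sca-1, had a difference of 0.30 (limma adjusted p = 0.77).

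**Figure D5:**
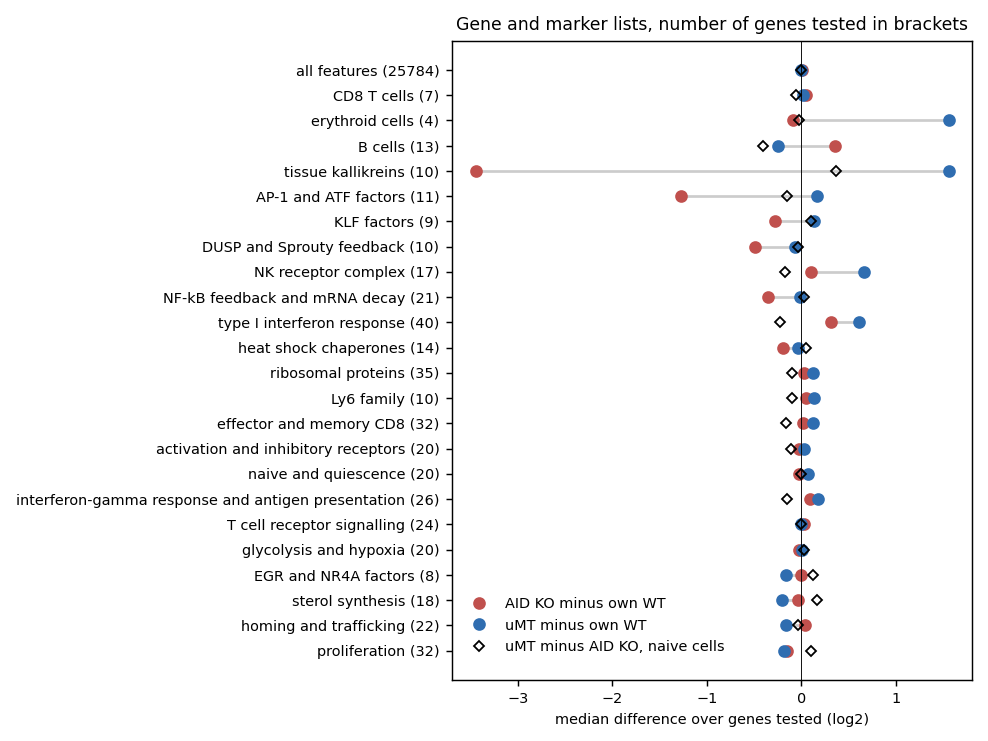
Median log2 difference of each gene list and of 3 marker lists, with all features on top. Red points are AID KO minus its own WT arrays, blue points uMT minus its own WT arrays, and open diamonds uMT minus AID KO in naive cells. The red point of the AP-1 list (-1.27) lies far from its blue point (0.17), and kallikreins are at -3.44 and 1.56, the first measured on dim AID KO spots.

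Markers of other cells were examined as whole lists, and no member of any list passed. Over all 25784 features, 13593 were lower in uMT and 3146 had an unadjusted p under 0.05 by limma. All 13 B cell markers tested were lower in uMT than in AID KO, with a median of -0.75, and 0 passed (6 at an unadjusted p under 0.05). Their summed level was 10.8 to 10.9 in AID KO, 7.87 to 8.98 in uMT and 7.08 to 8.82 in WT. Between 9 and 14 of 19 B cell markers were well above background in the knockout arrays. H2-Ab1, an MHC class II chain, was -1.92 and -0.38 in AID KO and -2.58 and -2.02 in uMT. All 4 erythroid markers tested were higher in uMT (median 1.997, 0 passed, 4 at an unadjusted p under 0.05). Their summed level in PLN was 1.34 in uMT, 0.370 in AID KO and 0.160 and 0.460 in WT. In MLN it was 9.08 in uMT, 2.01 in AID KO and 2.95 and 4.68 in WT. The part of B and erythroid cells in the differences above was not tested. Of the markers of plasma cells, CD4 T cells, NK cells, macrophages, dendritic cells, neutrophils and stroma, 3 of 6, 1 of 6, 3 of 6, 0 of 4, 0 of 5, 1 of 4 and 0 of 3 had an unadjusted p under 0.05.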

How the data were processed

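Agilent 1-colour arrays of sorted mouse CD8+ T cells were used. Per the submitters' processing notes and the file headers, the authors' files are scanner output of Agilent Feature Extraction 11.0.1.1, and the deposited intensity is the background-subtracted processed signal. The authors' series matrix, deposited on a log2 scale, was used as an alternative only. From the intensity, log2 minus the 75th percentile of each array was computed. Control spots and outlier spots were left out. A probe was kept if well above background on 2 of 12 arrays, measured on all total-cell arrays and missing on at most 1 naive array (185 features lack 1). The brightest probe stood for a gene. Of 56605 probes, 32994 had 1 symbol, 0 several and 23611 none.

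The test was limma (3.58.1, R 4.3.3), two-sided, with 1 model for 12 arrays and 4 residual degrees of freedom. Total-cell terms were genotype, slide and site, naive-cell terms were an intercept, genotype and Sca1p, with Benjamini-Hochberg adjustment over all features at 0.05. The fits with WT blocks and with the site interaction have 2. Number of arrays limits the precision. A bound is given for total cells where no array of 1 genotype was well above background and every array of the other was. It sets the bright mean against the higher of the probe's own value and the lowest signal well above background. Motifs and the 250-base windows were chosen with results known.

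Named genes were the 15 largest rises and 12 largest falls past the threshold with 1 sign in all matched differences, clone-type names left out, Ly6a, and from every list the 4 genes of lowest p. 10 falls qualified, and 2 places went to genes that did not pass, Asgr1 (-1.73, limma adjusted p = 0.0538) and Fam234b (-1.18, 0.0589). 2 genes and the results that need them are not reported here. Other genes named were chosen after their values were seen. The members and lists were chosen with earlier results of these data known. The scripts were tested on simulated data. RefSeq tables (GRCm38.p6) gave names and gene order, and the array build is mm9. Labels do not say that arrays came from separate animals.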

Additional observations from a re-analysis of the deposited data

Results flagged for a closer look

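For the genes below, the difference between uMT and AID KO was itself different in total and in naive cells, by the test of that difference (limma adjusted p 0.0186 to 0.0496), which was added after values were seen. The values are the total-cell difference minus the naive difference on the log2 scale. The naive cells came from PLN alone and lay on another slide, so sort, slide and lymph node site cannot be told apart. The genes below had also been called on the total-cell difference, which the test contains. Genes not well above background on any naive array are left out, since their naive difference has no size. Among kallikreins it was 4.65 for Klk1b3, which was not well above background in AID KO PLN. Among genes of the AP-1, DUSP, NF-kB feedback, KLF and activation receptor lists it was 2.38 for Fos, 2.37 for Dusp1, 2.36 for Klf4, 2.24 for Tnfaip3, 1.85 for Dusp5, 1.85 for Cd69 and 1.64 for Jun. Of genes outside these lists it was 2.26 for Bhlhe40, 1.84 for Trim13, 1.75 for Bambi, 1.58 for Hes5, 1.499 for Tsc22d1, 1.29 for Pmaip1 and -1.25 for AF366264. No group held 4 arrays of 1 genotype and site, so single arrays were not tested for standing apart.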

How the results depend on the processing

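Counts are given as features higher, then lower, in uMT, beside 56 and 23. Normexp background correction, on the median rather than the mean signal since the files hold no mean column, gave 131 and 31. The series matrix gave 124 and 29, no filter on dim probes 13 and 5, a filter at 6 arrays 116 and 46, the 8 total-cell arrays alone 26 and 11, the 4 knockout arrays alone 0 and 0 (695 at an unadjusted p under 0.05 by limma), no slide term 24 and 5, and matched WT blocks 0 and 1. Leaving out 1 array in turn gave 0 to 26 higher and 1 to 11 lower. A lone array of a genotype is then assumed to vary like the others. After WT subtraction (0 and 1) normexp gave 9 and 2, and quantile normalization, the series matrix, no filter and the 6-array filter gave 0 lower. The site difference gave 1 under normexp. The total minus naive difference (63) gave 3 with no filter. Quantile normalization (56 and 19) and the mean of probes (58 and 23) moved the first counts by less than 1.5 times. All 54 named genes that passed kept their sign in every setting in which they were tested, and 46 passed under normexp, 25 with no slide term and 12 with no filter. The 8 total-cell arrays, the 4 knockout arrays, no slide term and leaving out a WT or naive array give the main difference again. The sign could not change in those settings. The cause of these changes was not tested. The titles tie WT arrays to knockout arrays, and the fit with matched WT blocks above uses that pairing. The uMT and AID KO arrays share no replicate number in the labels.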
